A study of Mus musculus with 6 samples.

Results

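Cholesterol and fatty acid synthesis was followed through 37 genes chosen by symbol, of 23284 genes in the deposited counts. They cover the mevalonate steps, the steps from squalene to cholesterol, the sterol-sensing proteins, cholesterol efflux and esterification, and the making, elongation and desaturation of fatty acids. All 37 symbols were in the files, and 35 had enough reads to be tested. Lymph node cells came from C3H/HeJ mice, an inbred strain in which alopecia areata, an autoimmune loss of hair, is studied, and were sorted by flow cytometry. One population was CD3+CD8+CD44+CXCR3+NKG2D+ and the other CD3+CD8+CD44+CXCR3+NKG2D-, so both were CD8 T cells with surface marks of earlier activation and parted by the activating receptor NKG2D. RNA sequencing gave 3 libraries of each population, from 3 mice, and libraries with the same number were read as 1 mouse. In bulk RNA of this kind, fewer cells of a type and less RNA per cell cannot be told apart. The sources used here do not give the age, sex, treatment or disease state of the mice.

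A T cell that starts to divide needs new membrane, and builds sterols and fatty acids for it from acetyl-CoA. The SREBP transcription factors, encoded by Srebf1 and Srebf2, switch on these enzymes when sterols are scarce. SCAP carries SREBP to where it is cut, and the INSIG proteins hold it back when sterols are plentiful. Liver X receptors act in the other direction: bound by oxidised sterols, they raise the cholesterol exporters ABCA1 and ABCG1, and also Srebf1 and several fatty acid genes. Surplus cholesterol is esterified for storage by SOAT1 and SOAT2, which are also called ACAT enzymes. The genes named Acat1 and Acat2 encode different proteins, the thiolases that join acetyl-CoA units.

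The sequence that SREBP binds was searched in promoters because the sterol enzymes are its classical targets. RefSeq promoter sequences of GRCm38.p6, from 250 bases before to 50 after the gene start, were at hand for 28 of the 37 genes. The sterol regulatory element TCACNCCAC was searched on both strands. It was found in 1 of the 28, Hmgcs1, against 1.44% of 27025 genes with a promoter sequence. Its shorter core CACNCCAC, which overlaps the longer motif, was found in 3 of the 28 (10.7%) against 7.12% of all genes. The windows below show the core in capitals, on whichever strand it lies, and the name gives the position and strand of the printed bases.
Hmgcs1, chr13:119690201-119690236, plus strand: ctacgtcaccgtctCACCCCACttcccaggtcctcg
Acat2, chr17:12960885-12960920, minus strand: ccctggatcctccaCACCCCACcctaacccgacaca
Acat2, chr17:12960757-12960792, minus strand: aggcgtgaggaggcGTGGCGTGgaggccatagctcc
Insig1, chr5:28071389-28071411, plus strand: gtacgtgtagtgtcGTGGCGTGt
A match to these letters is a description of the window and not a measured binding site. Of the 3 genes, Acat2 and Insig1 had log2 fold changes of 0.44 and 0.14 between the populations, neither past the test, and Hmgcs1 was listed at 0 in every library.

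Libraries held 41168816 to 89184611 gene counts, and NKG2D+ libraries were the deeper in each of the 3 mice. Klrk1, which encodes NKG2D, stood at 409, 312 and 342 CPM (counts-per-million of the library's gene counts, after TMM scaling) in NKG2D+ libraries 1, 2 and 3 and at 34.5, 37.1 and 36.1 CPM in NKG2D- libraries, as labelled. Of the 6 other genes of the sort, Cd3e, Cd3d, Cd8a, Cd8b1, Cd44 and Cxcr3, none was called and log2 fold changes were 0.08, -0.18, 0.23, -0.08, 1.03 and 0.19. Cd3d was lower in every NKG2D+ library than in any NKG2D- library (adjusted p = 0.205). Cd44 was higher in every NKG2D+ library, at 430, 177 and 224 CPM against 137, 136 and 133 CPM (adjusted p = 0.13 by edgeR and 0.00532 by DESeq2), with NKG2D+ library 1 far above the others. Summed markers of B cells (10 genes, none at 0) were 608, 392 and 438 CPM in NKG2D+ libraries 1, 2 and 3 and 110, 285 and 239 CPM in NKG2D- libraries. Cd22 alone made up 147, 200 and 207 CPM of these sums in NKG2D+ libraries and 58, 113 and 115 CPM in NKG2D- libraries. Of the 10, 0 passed the adjusted threshold and 9 were higher at an unadjusted p under 0.05. Summed myeloid markers (9 genes) were 25.8, 21.1 and 24.6 CPM against 14.6, 20.8 and 17.9 CPM. NKG2D+ library 1 held the most of both, and NKG2D- library 1 the least. The adipocyte genes Adipoq, Plin1 and Fabp4 averaged at most 0.0541 CPM in either population. In that list of 8 adipocyte and stromal genes the sums were 53.3, 59.4 and 53.9 CPM against 69.6, 71.7 and 71.3 CPM. Most of it was Pecam1, a vessel and leukocyte adhesion protein, which was called lower in NKG2D+ cells (log2 fold change -0.47, adjusted p = 0.024), and the collagen gene Col1a1 was called higher (1.42, adjusted p = 0.0339). The replicate block ended both calls, at adjusted p-values of 0.0537 and 0.0806. The part of such cells in the lipid results was not tested.

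Between NKG2D+ and NKG2D- cells most of the 35 tested lipid genes lay close to each other, and 1 passed the test. Soat2, which encodes a cholesterol-esterifying enzyme, was 2.75-fold higher in NKG2D+ cells. Its relative Soat1 and the synthesis genes Sqle, Lss, Scd1 and Acly also stood higher in every NKG2D+ library than in any NKG2D- library. They differed by 1.02 to 2.57 times and did not pass the test. With Soat2 these were 6 of 35 members (17.1%), where 15.1% of all genes tested were so placed. No member was called lower. By edgeR, 1 of 35 was called higher, or 2.86%, where 1.65% of all 12951 genes tested were called higher, and 0 of 35 were called lower, where 0.363% of all genes were. At an unadjusted p under 0.05 there were 5 members higher (14.3%, against 12.5% of all genes) and 0 lower (against 8.62%). The shares higher are near the background, so the count of members called higher says nothing particular about lipid genes. At an unadjusted p the share lower was below that of all genes, and this difference was not tested. DESeq2 called 3 members higher, Soat2, Soat1 and Sqle, where it called 7.69% of all genes higher, and edgeR called the same 3 without NKG2D+ library 2, where 6.86% of all genes were called higher. No member was called under the replicate block or by limma-voom, where 0.44% and 0.463% of all genes were called higher.

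The median log2 fold change of the 35 members was 0.01, beside -0.01 for all genes tested. Of the members, 18 had a positive and 17 a negative log2 fold change. For 28 of the 35 (80.0%) it lay within 0.25 of 0 on the log2 scale, as it did for 64.6% of all genes. Members reached from -0.29 for Mvk to 1.46 for Soat2. Libraries of the populations did not overlap for 6 members (17.1%), all higher in NKG2D+ cells, where 15.1% of all genes tested were so placed. In the other direction there were 0 members, where 14.1% of all genes were so placed, and this difference was not tested.

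**Figure D1:**
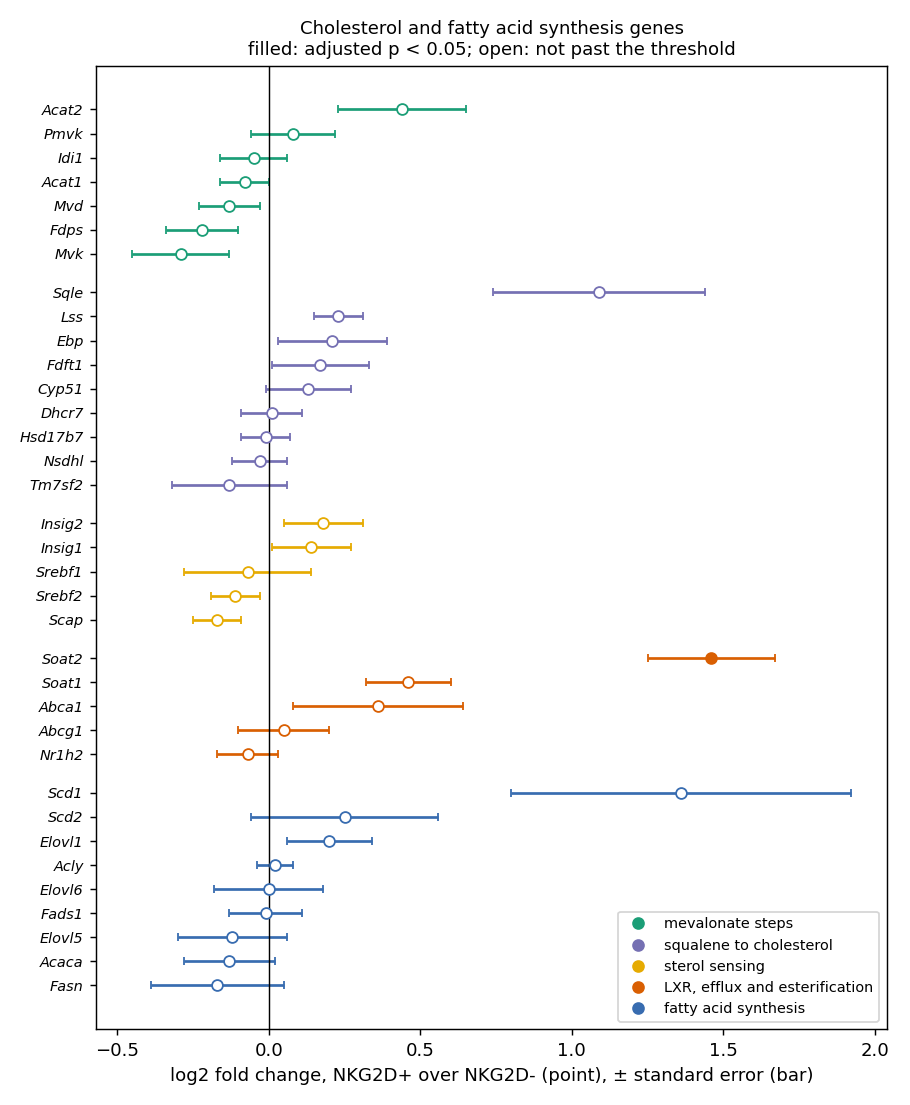
Log2 fold change of NKG2D+ over NKG2D- cells (x axis; points, with bars of 1 standard error) for the 35 tested members, grouped by role and ordered within each role. Soat2, at 1.46, is the filled point, and most others lie within 0.25 of the line at 0.

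Among the members, cholesterol esterification held the largest log2 fold change. Soat2 stood at 56.8, 32.2 and 43.3 CPM in NKG2D+ libraries 1, 2 and 3 and at 13.6, 17.3 and 17.0 CPM in NKG2D- libraries. The lowest NKG2D+ library lay well above the highest NKG2D- library, and the NKG2D+ libraries were spread more widely. The means were 44.1 ± 12.3 and 16.0 ± 2.08 CPM (SD, n = 3 each), with a log2 fold change of 1.46 (SE 0.21, adjusted p = 0.0297 by edgeR's quasi-likelihood test). An exact permutation test over the libraries, two-sided, stopped at p = 0.1, which is as low as 3 against 3 can reach. Within mice 1, 2 and 3 the NKG2D+ library held 4.18, 1.86 and 2.55 times the NKG2D- level. The counts behind these values were 2883 to 3734 reads in NKG2D+ and 540 to 1092 in NKG2D- libraries, so counting error is small beside the spread between mice.

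The size of the Soat2 difference varied less than its call. With the replicate number as a block its log2 fold change was 1.43 and its adjusted p 0.0909. Over 15 other settings, each favouring NKG2D+ cells, the log2 fold change ran from 1.13 to 1.71 and the adjusted p from 4.87e-09 with DESeq2 to 0.554 without both libraries of mouse 3. The call also ended with limma-voom (0.0645) and when NKG2D+ library 3 was left out (0.109). Leaving out NKG2D- library 1, 2 or 3 ended it too, at 0.158, 0.126 and 0.164. Few genes of any kind were called in these fits. Genes called higher fell from 214 to 11 without NKG2D+ library 3 and to 0 without mouse 3. Without NKG2D- libraries 1, 2 and 3 they were 15, 9 and 4. The Soat2 call held without NKG2D+ library 1 at a log2 fold change of 1.24 (adjusted p = 0.00879). Leaving out both libraries of mouse 1, where B-cell markers differed most, gave 1.13 (adjusted p = 0.0321). In mouse 2 the B-cell marker sums were 392 and 285 CPM and Soat2 stood at 32.2 and 17.3 CPM. Cd22 alone made up 200 and 113 CPM of those sums, a ratio of 1.77. The other B-cell markers had ratios of 0.995 to 1.22 in mouse 2. The part of B cells in the Soat2 difference was not tested further.

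**Figure D2:**
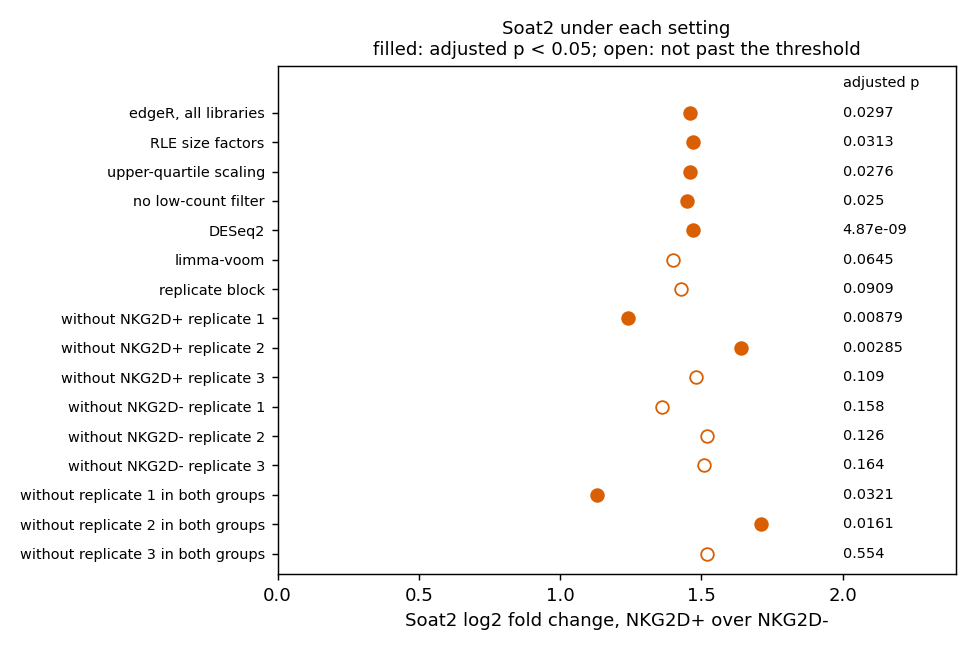
Log2 fold change of Soat2 (x axis) under the edgeR fit on all libraries and 15 other settings (rows), with the adjusted p printed at the right; filled points passed the threshold. Every point lies between 1.13 and 1.71, while 7 settings lose the call.

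The genes on either side of Soat2 were read for comparison. By their order in the RefSeq gene table these are Igfbp6, a growth factor binding protein, and Csad, an enzyme of taurine synthesis. Igfbp6 averaged 0.499 ± 0.117 CPM among NKG2D+ and 0.144 ± 0.104 CPM among NKG2D- libraries (log2 fold change 1.69, SE 0.55, adjusted p = 0.148). Its libraries did not overlap, on 1 to 46 reads each, and its ratios within mice 1, 2 and 3 were 24.2, 2.34 and 2.01. Csad averaged 5.41 ± 0.746 and 5.24 ± 0.637 CPM (log2 fold change 0.05, adjusted p = 0.907). Beyond these lie Spryd3, higher in every NKG2D+ library (log2 fold change 0.34, adjusted p = 0.0822 by edgeR and 0.00765 by DESeq2), and Zfp740 (log2 fold change 0.04, adjusted p = 0.757). All 4 were named for their place, and whether reads of a neighbour enter the Soat2 count was not tested.

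Soat1, the form of the esterifying enzyme found in most tissues, differed less. It stood at 85.4, 59.0 and 73.7 CPM in NKG2D+ libraries 1, 2 and 3 and at 52.5, 49.6 and 56.3 CPM in NKG2D- libraries. The populations did not overlap, with NKG2D+ library 2 close to the highest NKG2D- library. The difference on the log2 scale was 0.46 (SE 0.14), at an adjusted p of 0.125 by edgeR. DESeq2 gave an adjusted p of 0.0304 and edgeR without NKG2D+ library 2 one of 0.0151, within a range of 0.0151 to 0.664 over all settings.

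The cholesterol exporters did not pass the test. Abca1, which moves cholesterol to lipid-poor apolipoprotein, stood at 125, 233 and 177 CPM in NKG2D+ libraries 1, 2 and 3 and at 102, 183 and 130 CPM in NKG2D- libraries. The populations overlapped, while within every mouse the NKG2D+ library was the higher, by 1.22, 1.27 and 1.35 times. Its log2 fold change was 0.36 (SE 0.28, adjusted p = 0.512), and under the replicate block the adjusted p was 0.0779. Abcg1, which passes cholesterol to high-density lipoprotein, averaged 208 ± 40.6 and 202 ± 20.1 CPM. Nr1h2, the liver X receptor gene among the members, averaged 133 ± 8.37 and 139 ± 16.9 CPM.

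In the mevalonate steps, 0 of 7 tested genes passed in either direction, and their median log2 fold change was -0.08. The 7 include Acat1, whose thiolase is mitochondrial. Hmgcs1, the enzyme that makes HMG-CoA, was listed at 0 in all 6 libraries, as were 5039 of the 23284 genes. At these depths a count of 0 allows up to 3 reads, or 0.0336 to 0.0729 CPM before scaling, for counting error only. Whether reads of Hmgcs1 were set aside in counting was not tested, and no level is drawn from this 0. Acat2, the cytosolic thiolase of the first step, stood at 19.1, 10.7 and 13.9 CPM in NKG2D+ libraries 1, 2 and 3 and at 10.7, 10.1 and 11.5 CPM in NKG2D- libraries. NKG2D+ library 1 was high and the populations overlapped (log2 fold change 0.44, SE 0.21, adjusted p = 0.283). Fdps, which makes farnesyl diphosphate, stood at 15.3, 12.6 and 13.6 CPM against 17.8, 14.8 and 15.6 CPM. Each NKG2D+ library was below that of its mouse, by ratios of 0.859, 0.853 and 0.870, although the populations overlapped (log2 fold change -0.22, SE 0.12, adjusted p = 0.353).

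The other mevalonate genes lay between log2 fold changes of -0.29 and 0.08. Mvk, mevalonate kinase, had -0.29 (SE 0.16, adjusted p = 0.354). Mvd, the decarboxylase that follows, had -0.13, and Idi1, the isomerase of isopentenyl diphosphate, had -0.05. Pmvk, the second kinase, had 0.08, and Acat1, the mitochondrial thiolase, had -0.08. None of their standard errors was above 0.16.

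In the steps from squalene to cholesterol, 0 of 9 genes passed and the median log2 fold change was 0.13. Sqle, the squalene epoxidase that sets the pace of this branch, stood at 8.96, 3.26 and 5.70 CPM in NKG2D+ libraries 1, 2 and 3 and at 2.82, 2.50 and 3.09 CPM in NKG2D- libraries. NKG2D+ library 1 was highest, and library 2 lay only just above the NKG2D- libraries. The log2 fold change was 1.09 (SE 0.35, adjusted p = 0.148), and 0.68 without NKG2D+ library 1. DESeq2 gave an adjusted p of 0.0293 and edgeR without NKG2D+ library 2 gave 0.0168, within a range of 0.0168 to 0.673 over all settings. Lss, lanosterol synthase, acts next.

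Lss stood at 26.3, 24.3 and 26.2 CPM in NKG2D+ libraries 1, 2 and 3 and at 21.1, 21.8 and 22.5 CPM in NKG2D- libraries. The populations were tight and did not overlap, at a difference of 0.23 on the log2 scale (SE 0.08, adjusted p = 0.161). Later enzymes differed little. Cyp51, the lanosterol demethylase, had a log2 fold change of 0.13 and Ebp, the sterol isomerase, of 0.21. Dhcr7, which completes cholesterol, had 0.01, Nsdhl -0.03, Hsd17b7 -0.01 and Tm7sf2, a sterol reductase, -0.13. Fdft1, squalene synthase at the head of the branch, had 0.17, and adjusted p-values of these 7 genes were 0.561 or higher. Summed over all 17 enzymes of both branches, CPM was 337, 297 and 311 in NKG2D+ libraries and 312, 297 and 312 in NKG2D- libraries. These sums overlapped. The mitochondrial thiolase Acat1 made up 60.7, 67.8 and 65.1 CPM of them in NKG2D+ and 63.8, 69.4 and 71.2 CPM in NKG2D- libraries.

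**Figure D3:**
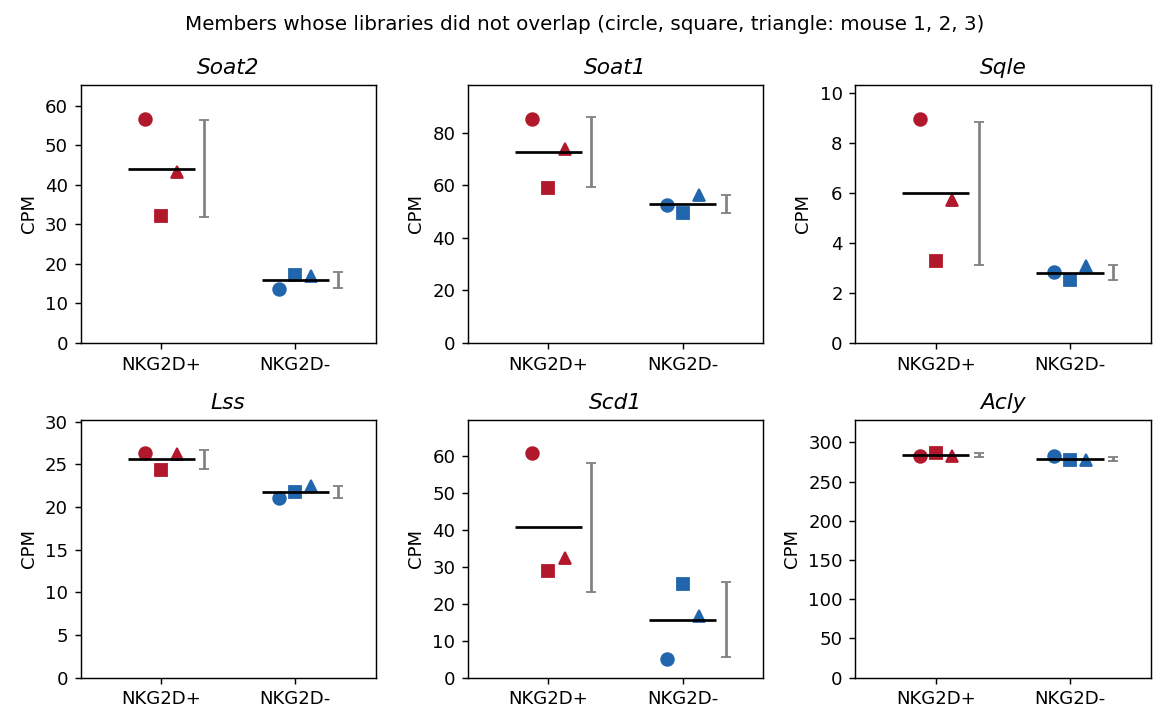
CPM (y axes, each from 0) of the 6 members whose NKG2D+ libraries all lay above their NKG2D- libraries; symbols are libraries by mouse, black lines are means and grey bars are ± 1 SD (n = 3). Soat2 shows the clearest gap, Acly almost none, and for Soat2, Soat1, Sqle and Scd1 the library of mouse 1 is the highest of NKG2D+.

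Of the sterol-sensing genes, 0 of 5 passed the test, and log2 fold changes lay between -0.17 and 0.18. Scap stood at 126, 147 and 133 CPM in NKG2D+ libraries 1, 2 and 3 and at 159, 151 and 147 CPM in NKG2D- libraries. The NKG2D+ library was the lower in every mouse, and NKG2D+ library 2 reached the lowest NKG2D- library (log2 fold change -0.17, SE 0.08, adjusted p = 0.274). Insig2 stood at 21.6, 15.8 and 18.6 CPM against 16.5, 17.0 and 16.1 CPM. Its populations overlapped (log2 fold change 0.18, SE 0.13, adjusted p = 0.481).

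Insig1, which SREBP itself induces, averaged 22.9 ± 3.40 and 20.8 ± 1.62 CPM (log2 fold change 0.14, SE 0.13). Srebf2, the regulator of the sterol branch, averaged 159 ± 15.0 and 172 ± 2.80 CPM (log2 fold change -0.11, SE 0.08, adjusted p = 0.489). Srebf1, the regulator of the fatty acid branch, averaged 164 ± 47.2 and 173 ± 23.1 CPM (log2 fold change -0.07, SE 0.21, adjusted p = 0.882). Its spread between mice was wider than the difference between populations.

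Of the fatty acid genes, 0 of 9 tested passed, with a median log2 fold change of 0.00. Scd1, a desaturase that makes oleate, stood at 60.6, 28.8 and 32.2 CPM in NKG2D+ libraries 1, 2 and 3 and at 5.14, 25.4 and 16.6 CPM in NKG2D- libraries. The libraries did not overlap, and the ratio of NKG2D+ to NKG2D- was 11.8 in mouse 1, 1.13 in mouse 2 and 1.95 in mouse 3. The log2 fold change of 1.36 (SE 0.56, adjusted p = 0.227) fell to 0.54 without both libraries of mouse 1. The libraries of mouse 1 also held the highest and the lowest B-cell marker sums, 608 and 110 CPM. Ratios of the B-cell genes Cd79a, Ms4a1 and Cr2 were close to those of Scd1 in each mouse. For Cd79a they were 11.6, 1.19 and 1.92, for Ms4a1 12, 1.12 and 2.06, and for Cr2 12.9, 1.13 and 1.87. Cd22 departed from these, at 2.53, 1.77 and 1.8, as did Cd79b, at 4.56, 0.995 and 1.39. The part of B cells in Scd1 was not tested.

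Scd2 encodes a close relative of this desaturase. It stood at 63.6, 153 and 125 CPM in NKG2D+ libraries 1, 2 and 3 and at 78.5, 111 and 98.1 CPM in NKG2D- libraries, so that mouse 1 was lowest in both. The Scd genes are similar in sequence, and reads that fit several places were set aside, so the split between them is uncertain. Elovl1, an elongase of very long chains, stood at 64.5, 48.0 and 48.6 CPM against 52.6, 42.8 and 45.2 CPM. Its populations overlapped, with the NKG2D+ library higher in each mouse (log2 fold change 0.20, SE 0.14, adjusted p = 0.476).

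Acly supplies cytosolic acetyl-CoA to both branches and varied little. It stood at 282, 286 and 283 CPM in NKG2D+ libraries 1, 2 and 3 and at 282, 277 and 278 CPM in NKG2D- libraries. The populations did not overlap before rounding, at a difference of 0.02 on the log2 scale (SE 0.06, adjusted p = 0.848). Fasn, the fatty acid synthase, stood at 208, 400 and 321 CPM against 315, 373 and 360 CPM. Mice differed more than populations (log2 fold change -0.17, SE 0.22, adjusted p = 0.708).

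Acaca, the carboxylase that commits acetyl-CoA to fatty acids, had a log2 fold change of -0.13. Elovl5 and Elovl6, elongases, had -0.12 and 0.00, and Fads1, a desaturase of polyunsaturated fatty acids, had -0.01. Fads2, its partner desaturase, had 0 to 4 reads in a library and was not tested. Summed over the 10 genes, CPM was 1000, 1210 and 1090 in NKG2D+ libraries 1, 2 and 3 and 1100, 1120 and 1110 in NKG2D- libraries.

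Several members kept 1 order of mice in both populations. Among NKG2D+ libraries, the highest was over 1.5 times the lowest for 10 of the 35 members, and among NKG2D- libraries for 2. The order of the 3 mice was the same in both populations for 13 members (37.1%), where it was the same for 30.7% of all genes tested. Abca1, Abcg1, Srebf1, Fasn and Scd2 were lowest in mouse 1 and highest in mouse 2 in both populations, 5 members (14.3%) against 9.54% of all genes. Fdps, Fdft1, Ebp, Dhcr7, Elovl1 and Fads1 had the opposite order, 6 members (17.1%) against 9.37% of all genes.

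Among the 5 members lowest in mouse 1, the ratio of highest to lowest library was largest for Scd2 in NKG2D+ cells, at 2.40, and for Abca1 in NKG2D- cells, at 1.79. For Dhcr7 it was 1.11 in NKG2D+ and 1.23 in NKG2D- cells. Both patterns were noticed after the values were seen. Their shares were above those of all genes, and this difference was not tested. Same-numbered libraries also share a lane tag, and mouse 1 had the fewest counts in both populations, so mouse, lane and depth cannot be told apart.

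**Figure D4:**
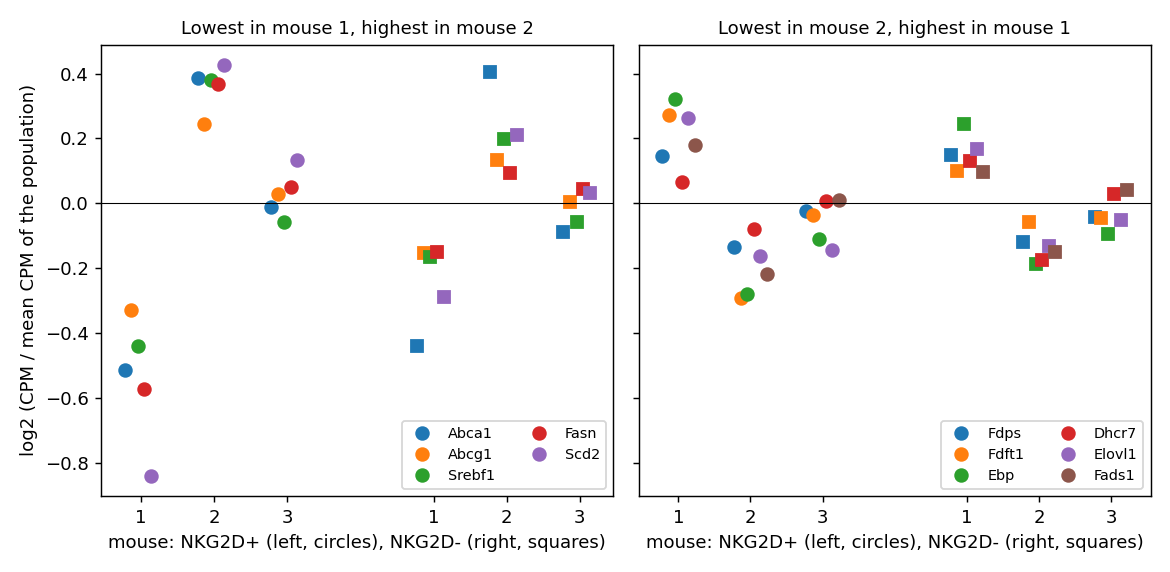
Log2 of CPM over the population's mean CPM (y axis) by mouse (x axis; circles NKG2D+, squares NKG2D-) for 5 members lowest in mouse 1 and highest in mouse 2 (left) and 6 members in the opposite order (right). In NKG2D+ cells Scd2 spans 2.40 times between mice 1 and 2, and Dhcr7 spans 1.11 times in NKG2D+ and 1.23 times in NKG2D- cells.

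Among other lipid genes, outside the 37, edgeR called none. Of 20 tested genes of sterol synthesis, uptake and transport, 0 passed, with a median log2 fold change of -0.03. An unadjusted p under 0.05 was reached by 12.5% of all genes higher and by 8.62% lower. Of the 20 genes it was reached by 3, 1 higher and 2 lower. The one with the smallest p was Lipa, the lysosomal lipase that frees cholesterol from its esters, at 75.3, 68.2 and 71.9 CPM in NKG2D+ libraries and 83.6, 80.6 and 88.0 CPM in NKG2D- libraries (log2 fold change -0.23, SE 0.07, adjusted p = 0.134). Every NKG2D+ library was below every NKG2D- library. Of 27 tested genes of fatty acid activation, elongation and triglyceride synthesis, 0 passed, with a median of -0.04. At an unadjusted p under 0.05 there were 6, 3 higher and 3 lower.

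In that list Mid1ip1, which promotes the assembly of acetyl-CoA carboxylase, had the smallest p. It stood at 22.2, 17.5 and 17.2 CPM in NKG2D+ libraries and at 11.7, 13.9 and 10.3 CPM in NKG2D- libraries, without overlap (log2 fold change 0.66, SE 0.16, adjusted p = 0.0825). Of 21 tested genes of fatty acid uptake and oxidation, 0 passed, with a median of 0.04 and 1 at an unadjusted p under 0.05. It was Acadl, a mitochondrial acyl-CoA dehydrogenase, at 38.4, 20.9 and 25.3 CPM against 13.7, 17.4 and 16.8 CPM (log2 fold change 0.82, SE 0.23, adjusted p = 0.112). DESeq2 called Mid1ip1 and Acadl, with adjusted p-values of 0.00371 and 0.00869.

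Genes of dividing cells were read beside the lipid genes. Of 13 such genes 5 were called higher and 0 lower, where 1.65% of all genes were called higher, and their median log2 fold change was 0.81. The 5 were Mki67, Top2a, Ccna2, Cdk1 and Aurkb. The replication genes Mcm2, Mcm3, Mcm5 and Pcna were not called, with log2 fold changes of -0.08, -0.02, 0.11 and 0.03 and overlapping libraries. Mki67, a protein of dividing cells, stood at 94.8, 77.5 and 84.7 CPM in NKG2D+ libraries and at 41.9, 40.4 and 36.1 CPM in NKG2D- libraries (log2 fold change 1.12, SE 0.10, adjusted p = 0.0089). Under the replicate block 3 of the 13 were called, Mki67, Top2a and Rrm2. The 16 tested enzymes of cholesterol synthesis, Acat1 among them, had a median of 0.00 in the same libraries. The difference between these lists was not tested.

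The library kit does not mark strand, so reads of overlapping genes cannot be told apart by it. In GENCODE M21, an annotation of GRCm38 and not of the mm9 build of these files, exons of 6 members overlap those of another protein-coding gene. They are Cyp51 with Akap9, Elovl1 with Cdc20, Fdft1 with Ctsb and Srebf1 with Rai1 on the opposite strand, and Fdps with Gm43738 and Tm7sf2 with Vps51 on the same strand. Levels of these 6 are therefore uncertain, and Soat2 is not among them.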

How the data were processed

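RNA of 6 sorted libraries (3 NKG2D+, 3 NKG2D-) was made into TruSeq libraries, per the labels' protocols. The authors deposited, for each library, whole-number counts by gene symbol. Per the submitters' processing notes, CASAVA 1.8.2 and TopHat2 2.0.4 were used with mm9. The counting program, annotation and strand setting were not given in the sources used here. Summary counts that name no gene (35.19% to 41.38% of each file, of which reads aligned to several places were 19.71% to 26.19% of each file) were left out.

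Counts were tested with edgeR 4.0.16 in R 4.3.3 (quasi-likelihood F-test, TMM, robust fits in legacy mode, group as the only term). filterByExpr (count at least 10, total at least 15) kept 12951 genes. P-values were Benjamini-Hochberg adjusted over all of them, with a threshold of 0.05. The fit was also run on simulated counts drawn without differences between mice. That run does not cover the spread between these libraries, and no result here rests on it. A standard error is the log2 fold change divided by the square root of F. Alternatives were RLE and upper-quartile scaling, no filter, DESeq2 1.42.0, voom of limma 3.58.1, the replicate number as a block, and leaving out each library or mouse.

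The series description names 3 mice, and same-numbered libraries were read as sharing a mouse. The main fit did not use this pairing, while the fit with the replicate block did. Deviations of same-numbered libraries from group means correlated across genes, with r = 0.26, 0.2 and 0.42, against -0.24 to 0.02 for other pairs. Since same-numbered libraries also share a lane tag, these values cannot tell a shared mouse from a shared lane. No 2 libraries of a group were copies (chi-square 43.3 to 250.0 per degree of freedom). Members, lists and the rule for named genes were chosen with earlier results of these data known. All members are named; values by library are given for members called, not overlapping, or with the 2 smallest p of a role, and for some others chosen after their values were seen. From other lipid lists the gene with the smallest p is named.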

Additional observations from a re-analysis of the deposited data

How the results depend on the processing

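Of the 35 members, 32 were called under no setting. Soat2 kept its direction in all 15 alternatives and its call in 8. Members called higher numbered 3 with DESeq2, 0 with limma-voom and 0 with the replicate block, and 0 to 3 with 1 library left out and 0 without mouse 3; none was called lower. The block reduced the calls over all genes to 57 higher and 11 lower, and dividing-cell genes called higher to 3, and of the genes named in the text it ended the calls of Soat2, Pecam1, Col1a1, Ccna2, Cdk1 and Aurkb. DESeq2 called 996 of all genes higher and 437 lower and limma-voom 60 and 23, against 214 and 47 by edgeR. With 1 library left out these were 4 to 904 higher and 4 to 408 lower, the most without NKG2D+ library 2, and without mice 1, 2 and 3 they were 178, 321 and 0 higher and 51, 33 and 0 lower. Dividing-cell genes called higher were 8 with DESeq2, 3 with limma-voom, 0 to 7 with 1 library left out, and 6, 2 and 0 without mice 1, 2 and 3. DESeq2 and the fit without NKG2D+ library 2 called 1 and 2 genes higher in the list of fatty acid and triglyceride genes and 1 and 1 in that of oxidation. Without NKG2D+ library 1, 1 gene of the other sterol list was called lower.

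Members whose libraries did not overlap numbered 1 lower with RLE size factors. Without NKG2D+ library 2 there were 10 higher, and with a mouse left out 10 to 11 higher for mice 1 and 2. Members placed lower were 0 to 3 with 1 library left out and 6, 5 and 2 without mice 1, 2 and 3. Fewer libraries make a gap easier. Klrk1 stood at 3.33 without mouse 3 and lost its call (adjusted p = 0.105, over a range of 1.83e-143 to 0.105). The members' median log2 fold change stayed within 0.007 and 0.036.

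Direction turned for 16 members, none of them called and none above 0.25 in size. Elovl6 stood at 0.00 with RLE and DESeq2 and 0.01 with upper-quartile scaling. With 1 library left out, log2 fold changes ran from -0.09 to 0.19 for Abcg1, -0.22 to 0.02 for Acaca, -0.07 to 0.08 for Dhcr7, -0.28 to 0.05 for Elovl5, -0.14 to 0.16 for Elovl6, -0.11 to 0.09 for Fads1, -0.40 to 0.05 for Fasn, -0.06 to 0.02 for Hsd17b7, -0.11 to 0.03 for Idi1, -0.13 to 0.03 for Nr1h2, -0.07 to 0.02 for Nsdhl, -0.04 to 0.14 for Pmvk, -0.02 to 0.53 for Scd2, -0.31 to 0.11 for Srebf1 and -0.23 to 0.07 for Tm7sf2. With a mouse left out they ran from -0.01 to 0.12 for Abcg1, -0.02 to 0.05 for Dhcr7, -0.08 to 0.10 for Elovl6, -0.06 to 0.03 for Fads1, -0.07 to 0.04 for Hsd17b7, -0.12 to 0.04 for Idi1, -0.04 to 0.26 for Insig1, -0.17 to 0.07 for Nr1h2, -0.07 to 0.01 for Nsdhl, -0.04 to 0.16 for Pmvk, -0.19 to 0.03 for Srebf1 and -0.25 to 0.10 for Tm7sf2. The cause of these changes was not tested. Depth limits Fads2, with 0 to 4 reads in a library, which was not tested, and Hmgcs1, listed at 0.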
